A study of Drosophila melanogaster with 4 samples.

Results

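The Antennapedia complex is the head and anterior thorax group of Hox genes of Drosophila melanogaster, and the 6 genes followed here are lab, pb, Dfd, Scr, ftz and Antp. Their dSFMBT regions were taken as every enriched region that overlapped arm 3R from 2480000 to 2840000, in FlyBase release 5 coordinates, which is the stretch that holds these genes. By this rule 47 of the 9756 regions of the combined list, 33 of the 5514 regions of replicate 1 and 33 of the 6004 regions of replicate 2 belonged to the complex. The data came from ChIP-seq on wild-type Oregon-R larvae (the strain Oregon-R-modENCODE) at the third instar, with the antibody Q2642 against dSFMBT. The ChIP group had 2 replicates and the input group had 2 replicates, all of the same strain, genotype and stage. The inputs had no region list among the files analysed here, so no region was measured in them, and no mutant or knockdown larvae check the antibody. The labels name larvae and no tissue or cell type, so a region cannot be placed in a part of the body.

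dSFMBT belongs to the Polycomb group and is the partner of Pho, which binds DNA, in the complex called PhoRC. In flies, Polycomb group complexes keep Hox genes silent in the segments where they should be off, and PhoRC brings other Polycomb complexes to DNA elements near these genes. Hox proteins are homeodomain transcription factors that give body segments their identity, and in Drosophila they sit in a split cluster, of which the bithorax complex holds the posterior genes. ftz lies inside the Antennapedia complex and encodes a homeodomain protein, but acts in the pair-rule step of segmentation rather than in segment identity.

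Each region carries 1 score from the authors, read here as a log2 value, and a ratio is 2 raised to that score. The denominator of that ratio is not given by the labels or file headers. Scores below are log2 unless called ratios. A combined-list region was found in both replicates when it overlapped a region of each by at least 1 bp, and its replicate scores are the highest among the regions it overlaps. Gene positions came from a release 6 gene table, moved to release 5 by subtracting 4174278 bp, a constant shift for this arm. The table gives no strand, exons or inner promoters, so the start of each gene is its outer end on the side known from textbook maps, and no region could be called exonic or intronic. Nothing in the labels tells if the replicates were independent larval collections, so the SDs below measure the spread between these libraries, which may be technical. No p-value was computed, because there is no second group with a list.

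dSFMBT regions lay at, or within 1 kb of, the starts of 5 of the 6 genes, and further regions were spread along the Antp body, while ftz had none in any list. The strongest region of the complex covered the start of Dfd. The next strongest lay just beyond the end of Antp, followed by the region at the Antp start. In the combined list 7 of the 47 regions had a ratio above 2, which is 14.9% (95% exact Clopper-Pearson interval 6.20 to 28.3%), against 6.21% of the whole combined list. The whole-list share lay inside this interval, at its lower edge. All 7 were found in both replicates. So were 129 of the 134 such regions of arm 3R and 471 of the 606 in the whole combined list. The intervals on shares cover counting error only and treat regions as separate draws.

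**Figure D1:**
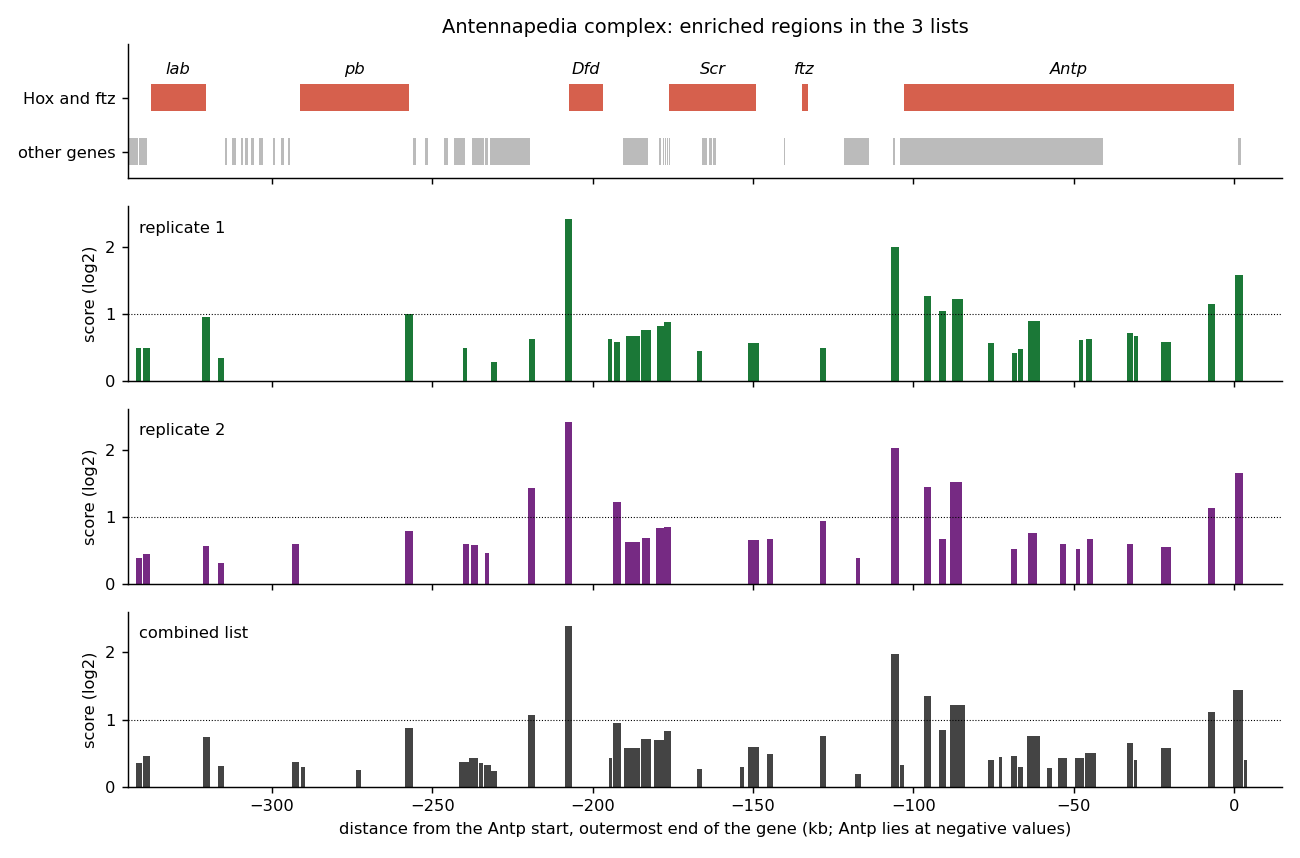
Enriched regions of the Antennapedia complex in replicate 1, replicate 2 and the combined list. Each bar spans a region, its height is the authors' score (log2), the dotted line marks a ratio of 2, and the x axis is the distance in kb from the Antp start, with the 6 genes and other annotated genes drawn above. The tallest bar in every list stands at the Dfd start, and ftz has no bar.

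The level over each gene was taken as the highest score of any region that overlaps the gene body. For Antp it is the highest of 13 regions in replicate 1 and 11 in replicate 2. For Scr it is the highest of 3 and 2, and lab, pb and Dfd had 1 in each replicate. The order of the genes is not adjusted for this. Dfd, which specifies the maxillary and mandibular segments of the head, had 2.41 in replicate 1 and 2.40 in replicate 2, a mean of 2.41 ± 0.0065 (SD, n = 2). Antp, which specifies thoracic identity, had 1.27 in replicate 1 and 1.52 in replicate 2, a mean of 1.39 ± 0.18 (SD, n = 2). The replicate maxima of Antp came from different regions, 2728254 to 2730524 in replicate 1 and 2736257 to 2740145 in replicate 2. This SD is therefore not the spread of a single site. The region at the Antp start overlapped the gene in the combined list alone, at 1.44. Both replicate values of Dfd stood above both of Antp, and both of Antp above those of the other genes.

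Below these came pb, needed for the adult mouthparts, with 1.00 in replicate 1 and 0.80 in replicate 2 (mean 0.90 ± 0.14 SD, n = 2). Scr, which acts in the labial segment and the prothorax, had 0.88 in replicate 1 and 0.85 in replicate 2 (mean 0.86 ± 0.024 SD, n = 2). lab, which acts in the most anterior Hox domain of the head, had 0.96 in replicate 1 and 0.57 in replicate 2 (mean 0.76 ± 0.27 SD, n = 2). The replicate values of pb and Scr overlapped, as did those of Scr and lab, so these 3 genes cannot be put in order.

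**Figure D2:**
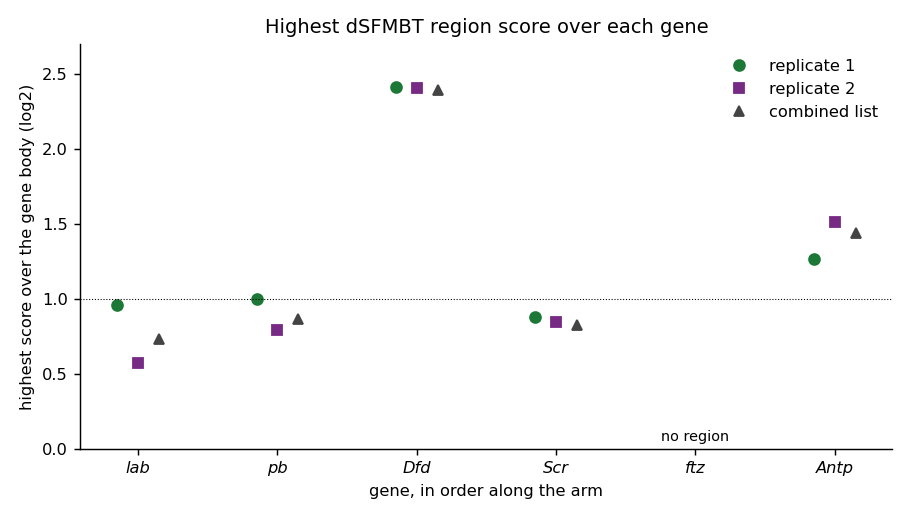
Highest region score (log2) over the body of each gene, by list, with genes in their order along the arm and a dotted line at a ratio of 2. Circles are replicate 1, squares replicate 2 and triangles the combined list. Dfd stands at 2.39 to 2.41 in every list and Antp at 1.27 to 1.52, while lab, pb and Scr lie at or below 1.00.

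5 of the 6 genes had a region over the gene body in all 3 lists, against 32.3% of the 4206 genes of arm 3R. Long genes have more room for a region, and 60.2% of the 457 arm genes of 10 kb or more had one. lab, pb, Dfd, Scr and Antp are all above that length, and ftz, at 1.92 kb, is the short one. The start itself lay inside a region of every list for lab, pb, Dfd and Scr. Over the whole arm, 17.7% of the 8412 gene ends did so, and 24.8% of the ends of genes of 10 kb or more. These arm shares count both ends of each gene, so they are not like for like with the starts alone. Of the other ends of the 6 genes, only that of Scr lay inside a region of every list. The members were picked as Hox genes with earlier results known, so these shares describe them and test nothing.

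The region at the Dfd start ran from 2616218 to 2618533 on arm 3R, with its centre at -0.18 kb from the start (upstream). Its ratio was 5.25 in the combined list, where it ranked 38 of 9756, and it ranked 13 in replicate 1 and 25 in replicate 2. By the mean of the replicate scores it ranked 19 of the 4036 regions found in both replicates. It covered 9.21% of the 10.6 kb gene, and no other region overlapped the Dfd body in any list. A single called region of 2316 bp thus overlapped Dfd, with 0.976 kb of it over the gene. That width was close to the median of 2317 bp of the complex regions found in both replicates.

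The Antp start lay in the combined-list region from 2824464 to 2827821, which had a score of 1.59 in replicate 1 and 1.65 in replicate 2 (mean 1.62 ± 0.049 SD, n = 2). It ranked 87 of 4036 by that mean. In the replicate lists this region began 372 bp upstream of the gene in replicate 1 and 285 bp upstream in replicate 2, so the start was within 1 kb of a region in every list but inside one in the combined list alone. It also overlapped the lncRNA gene lncRNA:CR45899.

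The starts of lab, pb and Scr carried regions that scored below those of Dfd and Antp. At lab it ran from 2503291 to 2505537, with scores of 0.96 in replicate 1 and 0.57 in replicate 2, and ranked 558 of 5514 and 3064 of 6004 in those lists. The replicates thus placed the lab start very differently. At pb it ran from 2566476 to 2568905, with scores of 1.00 in replicate 1 and 0.80 in replicate 2. Its end reached into zen2, a homeobox gene derived from a Hox gene, in the combined list and in replicate 1. The 2 other combined-list regions over pb were found in neither replicate. At Scr it ran from 2673307 to 2676850 and was 3544 bp wide, with scores of 0.57 in replicate 1 and 0.65 in replicate 2 (mean 0.61 ± 0.059 SD, n = 2).

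The centres of the start regions lay at -0.102 kb from the start at lab and 0.0945 kb at pb, where negative values are upstream. The centre was at 0.62 kb at Scr and -1.19 kb at Antp. Across the 5 start regions the mean replicate score ranged from 0.61 to 2.41, and the range of the other 22 regions found in both was 0.33 to 2.01.

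ftz was the one gene without a region. The nearest edge to its start lay 5695 bp away in replicate 1, 5660 bp in replicate 2 and 5651 bp in the combined list. That neighbour, from 2695697 to 2697780, scored 0.50 in replicate 1 and 0.94 in replicate 2, and stood between ftz and Antp. On the other side, a region between Scr and ftz from 2679179 to 2681212 was found in replicate 2 alone, at 0.66.

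Antp differed from the other genes in how much of it was covered. Its 103 kb body overlapped 13 regions in replicate 1, 11 in replicate 2 and 17 in the combined list, and 27.9%, 25.0% and 38.3% of its length lay inside them. 11 of the 17 combined-list regions were found in both replicates. In the combined list the covered share was 21.9% for Scr, 13.1% for pb, 9.21% for Dfd and 5.95% for lab. Of these 17 regions, 12 also overlapped the gene CG46458, which lies over part of Antp, and cannot be assigned to one of the pair.

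The stronger Antp regions stood near both ends of the gene. Near the start, besides the region at 1.62, one from 2816673 to 2818959 with its centre 7.13 kb downstream scored 1.15 in replicate 1 and 1.12 in replicate 2 (mean 1.14 ± 0.015 SD, n = 2). Toward the far end, the region from 2736301 to 2740964 scored 1.23 in replicate 1 and 1.52 in replicate 2 (mean 1.37 ± 0.20 SD, n = 2). At 4664 bp it was among the widest of the complex.

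The region from 2728216 to 2730532, which covered all of lncRNA:CR43252 inside Antp, scored 1.27 in replicate 1 and 1.44 in replicate 2 (mean 1.35 ± 0.12 SD, n = 2). Between them, the region from 2732949 to 2735032 scored 1.04 in replicate 1 and 0.67 in replicate 2, so only replicate 1 put it above a ratio of 2. The 6 regions found in both replicates between 21.3 and 68.6 kb from the start had mean scores of 0.47 to 0.83. The highest of these 6 ran from 2760497 to 2764543, at 0.90 in replicate 1 and 0.75 in replicate 2 (mean 0.83 ± 0.10 SD, n = 2). This split of the gene into ends and middle was made after the values were seen.

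The second strongest region of the complex lay outside all 6 genes. It ran from 2717811 to 2720496, 1.48 kb beyond the far end of Antp and over the lncRNA gene lncRNA:CR45559. It scored 2.00 in replicate 1 and 2.03 in replicate 2 (mean 2.01 ± 0.021 SD, n = 2), a combined ratio of 3.93, and ranked 36 of 4036 by the mean.

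**Figure D3:**
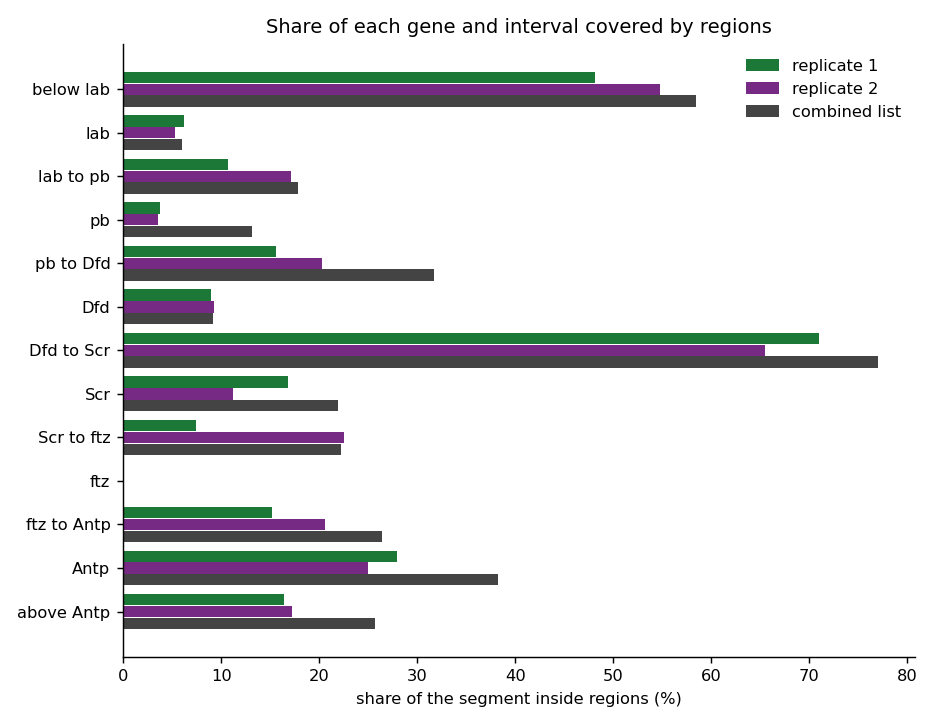
Share of each gene and of each interval between genes that lay inside enriched regions, in percent, for replicate 1, replicate 2 and the combined list, in order along the arm. The interval from Dfd to Scr is covered most, at 65.4 to 77.0%, and ftz not at all.

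The interval between Dfd and Scr was the most densely covered part, with 71.0% of its 20.7 kb in replicate 1, 65.4% in replicate 2 and 77.0% in the combined list. It holds mir-10, a microRNA gene found in Hox clusters of many animals. The widest region of the complex, from 2634851 to 2639749, spanned mir-10 and scored 0.67 in replicate 1 and 0.62 in replicate 2 (mean 0.64 ± 0.035 SD, n = 2). Its neighbour from 2640000 to 2643088, over lncRNA:CR42651, scored 0.77 in replicate 1 and 0.68 in replicate 2. Both regions were wider than the one at the Dfd start and scored far below it. Their combined scores of 0.58 and 0.71 were above the median of 0.42 of the whole combined list.

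The side of that interval next to Scr carries 4 tRNA:Lys genes and 2 genes for 7SL RNA, the RNA of the signal recognition particle. A pair of adjacent regions overlapped them, from 2644121 to 2647207 and from 2647212 to 2649438. The second region also reached into the adjoining end of Scr. The replicate 2 scores were 0.83 and 0.85. In replicate 1 both took a score of 0.88, because 1 replicate 1 region touched both. These genes belong to families of near-identical copies, and how multiply matching reads were handled is not stated in the labels. Scr overlapped 3 regions in replicate 1, 2 in replicate 2 and 4 in the combined list, and its highest score came from the second of these regions. Without it, Scr stood at 0.61, its start region.

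The replicates disagreed most between pb and Scr. The region from 2604901 to 2607079, which overlapped lncRNA:CR42721 and lay 10.5 kb from Dfd, scored 0.63 in replicate 1 and 1.43 in replicate 2. The region from 2631402 to 2633623, 3.25 kb past the other end of Dfd, scored 0.58 in replicate 1 and 1.23 in replicate 2. These were the 2 regions of the complex whose replicate scores differed by more than 0.5, and both were above a ratio of 2 in replicate 2 and not in replicate 1. That is 7.41% of the 27 regions of the complex found in both replicates, against 5.13% of all 4036.

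**Figure D4:**
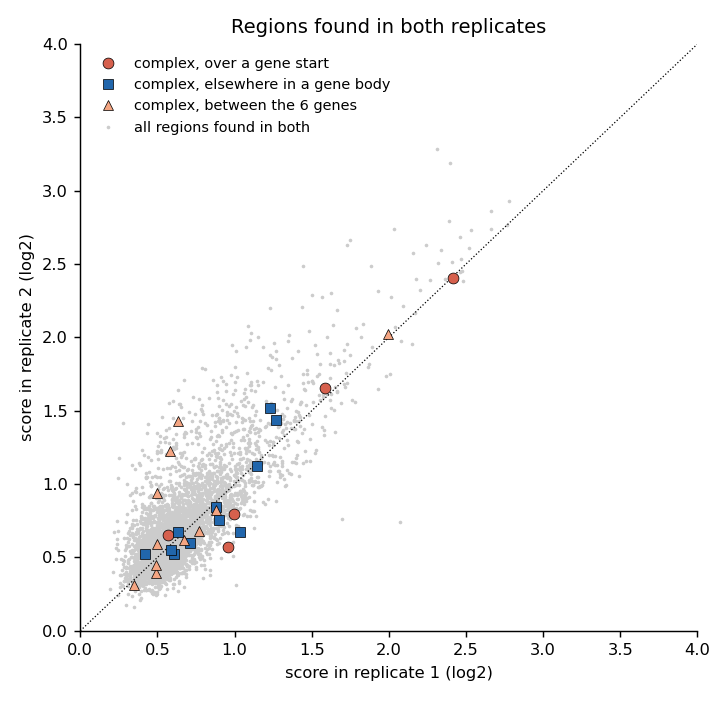
Score in replicate 2 (log2) against score in replicate 1 (log2) for regions found in both replicates, with equal values on the dotted line. Coloured symbols are the 27 regions of the complex by place and grey points all 4036 regions. The regions at the Dfd start and beyond the Antp end sit on the line at above 2, and 3 of the regions between the genes rise well above it.

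Of the 47 combined-list regions of the complex, 27 were found in both replicates, 57.4% (95% exact interval 42.2 to 71.7%). The share was 41.4% in the whole combined list and 44.9% on arm 3R, and the arm value lay inside that interval. A further 6 of the 47 were found in replicate 1 alone, 6 in replicate 2 alone and 8 in neither. The 27 had combined scores from 0.30 to 2.39, with a median of 0.73, and a median width of 2317 bp. The 20 others had scores from 0.18 to 0.48, with a median of 0.34, and a median width of 1672.5 bp. Every region of the complex that scored above this last range was thus found in both libraries. Among all regions found in both, the median combined score was 0.56 and the median width 2878.5 bp.

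Seen from the replicate lists, 27 of 33 had a counterpart in the other replicate, 81.8%, and this held for each of the 2 lists. Over the whole lists these shares were 79.4% for replicate 1 and 71.1% for replicate 2. The regions of the complex found in 1 replicate list and not in the other scored 0.29 to 0.67 in replicate 1 and 0.39 to 0.66 in replicate 2.

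Across the 27 regions the replicate scores had a Spearman rho of 0.75 and a Pearson r of 0.87, as a description of regions that come from the same libraries. The difference, replicate 2 minus replicate 1, had a median of -0.033 in the complex and 0.034 over all 4036 regions. Replicate 2 was higher in 11 of the 27 regions and in 2387 of the 4036. The absolute difference was under 0.1 in 16 of the 27 (59.3%), and in 46.1% of all 4036.

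No region just inside or just outside the bounds of the locus had a ratio above 2. The one over Taf1 was found in both replicates and scored above the median of 0.42 of the whole combined list. On the lab side, the outermost region inside scored 0.35 over CG1307 and twr, and the nearest outside scored 0.53 over Taf1, 6.30 kb from the bound. On the Antp side these scores were 0.39 and 0.40, and neither region was found in a replicate list. The bounds thus cut through no strong region.

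A list of 12 further genes of the complex was taken from textbook knowledge: zen, zen2, bcd, Ama, Edg84A and the 7 Ccp84A genes. bcd, the maternal anterior determinant, was the 1 of these 12 with a region in all 3 lists (8.33%), against 35.3% of the 3387 protein-coding genes of arm 3R. The 12 genes are short, with a median length of 956 bp and none of 10 kb or more, and the arm-wide share is not matched for length. That region, from 2583240 to 2586383, scored 0.50 in replicate 1 and 0.59 in replicate 2. zen2 was touched by the edge of the pb start region, and Ama, an immunoglobulin-family cell adhesion gene, overlapped regions in the combined list and in replicate 2, at 0.58, but not in replicate 1. zen, the cuticle protein gene Edg84A and the 7 cuticle protein genes of the Ccp84A group had none in any list.

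The bithorax complex, taken from the lowest to the highest end of Ubx, abd-A and Abd-B, was the closest counterpart. Regions covered 30.0% of the Antennapedia complex and 33.1% of the bithorax complex in the combined list, against 17.3% of arm 3R. In the replicate 1 list these shares were 20.5%, 22.0% and 9.82%, and in the replicate 2 list 21.2%, 23.0% and 11.4%. Regions with a ratio above 2 made up 14.9% of the Antennapedia complex regions and 30.6% of the bithorax complex regions (95% exact interval 18.3 to 45.4%) in the combined list, and 6.57% of those of arm 3R. In number these were 7 of 47 and 15 of 49. No test of the difference was made, and the intervals of the complexes overlapped.

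**Figure D5:**
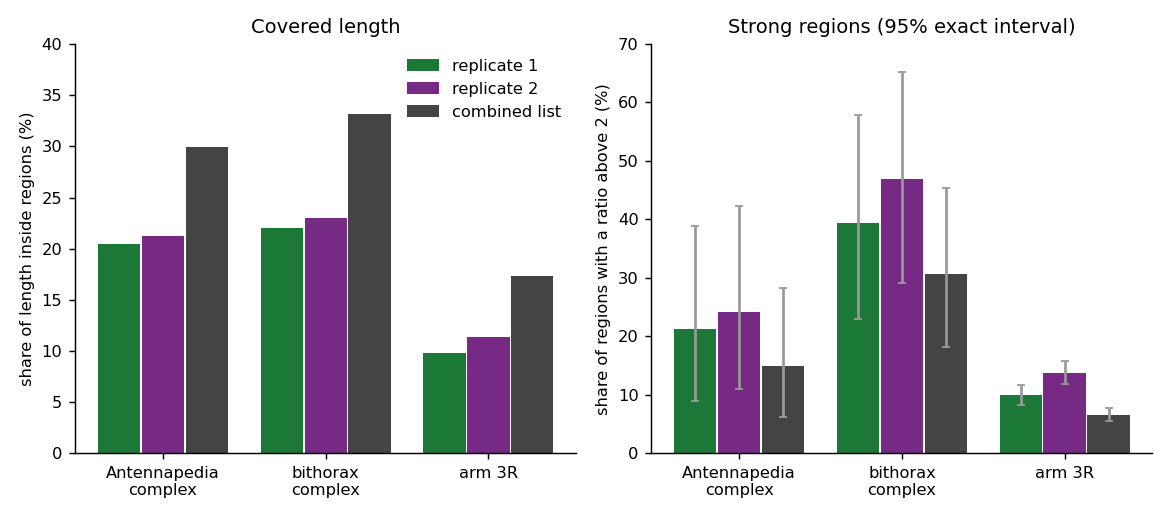
Share of length inside regions (left, %) and share of regions with a ratio above 2 (right, %, bars with 95% exact intervals for counting error) for the Antennapedia complex, the bithorax complex and the whole of arm 3R, by list. Both complexes are covered over a larger share than the arm in each list, and the intervals of the complexes overlap on the right.

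All 3 Hox genes of the bithorax complex had replicate scores above those of lab, pb and Scr. Abd-B, the most posterior, scored 2.66 in replicate 1 and 2.86 in replicate 2 (mean 2.76 ± 0.14 SD, n = 2), above Dfd. abd-A scored 2.32 in replicate 1 and 2.51 in replicate 2, on both sides of Dfd. Ubx scored 1.41 in replicate 1 and 1.91 in replicate 2, a range that overlaps that of Antp. Each value is the highest of several regions. Abd-B had 7 in replicate 1 and 6 in replicate 2, abd-A 4 and 4, and Ubx 9 and 8. Dfd had 1 in each, and the comparison is not adjusted for this.

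A list of 17 other homeobox genes of arm 3R, Ubx, abd-A and Abd-B included, was taken from textbook knowledge and need not be complete. Of these 17, 14 had a region over the body in all 3 lists (82.4%), a share that describes the list alone. The share was 32.3% for all genes of the arm and 35.3% for its protein-coding genes. In 9 of the 14 the combined ratio was above 2, and 5.06% of the 4206 genes of the arm had both. These shares are not matched for length, and 7 of the 17 are 10 kb or longer. Besides Abd-B and abd-A, the highest combined scores belonged to lbe, at 2.08, and Dr, at 1.67. lbe is a homeobox gene of muscle and heart precursors, and Dr is one of the nervous system and muscle. The 3 without a region over the body, named after their values were seen, were repo, bap and btn. With 2 kb added on both sides of each gene body, a setting chosen after seeing the data, the count was 17 in place of 14. The arm-wide shares above are for the gene body alone. By the pair of highest replicate scores, Leash, Ak3 and CG14696 had the smallest mean distance to the 5 genes with regions, out of 1336 outside the complex on the arm. They have the same scores, 0.97 in replicate 1 and 0.85 in replicate 2, because they overlap the same replicate regions. Their mean distance to the 5 genes was 0.66 in log2 units, over 2 lists. They stood near pb, at 1.00 and 0.80, but far from Dfd, at 2.41 and 2.40, so they are not like each of the 5.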

How the data were processed

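The files were lists of enriched regions for ChIP replicate 1, ChIP replicate 2 and both combined. Per the file headers, coordinates are FlyBase release 5. Per the submitters' processing notes, the aligner was Bowtie 0.12.7. The peak caller, its threshold, how inputs entered and how the lists were pooled are not stated in the labels or headers. The authors deposited 1 score per region, treated here as log2: differences between the 12 most frequent scores equalled the log2 of a fraction of whole numbers, the lower one no larger than 40 (tolerance 1e-07), in 16, 44 and 24 of 66 pairs in the combined, replicate 1 and replicate 2 lists, and natural log and log10 gave 0. No read counts were in these files, so depth is unknown.

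Regions, overlaps and covered lengths were computed with Python 3.11.15, numpy 2.4.6, pandas 2.3.3 and scipy 1.17.1, and drawn with matplotlib 3.10.9. The overlap code was checked against bedtools 2.31.1 on simulated lists. The smallest width was 1001 bp in the combined list and 1301 bp in each replicate list. Gene names came from the RefSeq release 6 table, where all 6 genes matched.

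The genes, lists and summaries were chosen with earlier results of these data known. Named regions were those found in both replicates, with the 6 highest by mean replicate score and the 3 widest in full; the strands of the 6 genes came from textbook maps. Named genes were the 6, other locus genes with regions in all lists or on the fixed list, the 4 highest of the homeobox list and 3 by likeness of replicate scores. Outside these rules, and named after their values were seen, are the region between Scr and ftz found in replicate 2 alone, Ubx (as a gene of the bithorax complex), and repo, bap and btn; the regions nearest the bounds, with Taf1, are named as such. The planned promoter motif counts, and any promoter sequence, were not analysed here.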

Additional observations from a re-analysis of the deposited data

How the results depend on the processing

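Of 44 alternative values, 33 stayed within 1.5 times the reported count or within the replicate spread of the reported value, and 11 moved further. In place of 27 regions found in both replicates, 16 were found among regions at or above each list's median score, where fewer enter by construction. The count was 33 with either replicate left out, and 25 without the regions over tRNA and 7SL RNA genes. At a ratio above 1.5, 18 regions passed in place of 7. With regions less than 500 bp apart merged, the complex had 34 regions in place of 47, and 7 were still above a ratio of 2. The median percentile of the 47 regions by score was 59.4. It was 54.4 by width, 65.7 within arm 3R, and 59.7 to 63.8 with a replicate left out. The covered share of the complex over that of the bithorax complex was 0.90. It was 0.84 for regions per 100 kb, 0.83 with bithorax bounds 20 kb further out, and 0.92 to 0.93 with a replicate left out. Among the 12 further genes taken from textbook knowledge, those with a region numbered 2 (in place of 1) with either replicate left out: Ama or zen2 joined bcd. Where a cause is not named above, the cause was not tested. Alternatives for the tRNA and 7SL regions, the number of regions per list, the bithorax bounds, and the replicates left out for the bithorax, homeobox and other-gene values were chosen after seeing the data, as were merging for the ratio count, single matches for the replicate difference and the 2 kb flanks for homeobox genes. The motif alternative was not run. No paired analysis was possible because region lists for the inputs were not used here and nothing was tested between groups. Read depth is unknown, so no limit can be set on the signal where a list has no region.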

Other observations

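The longest stretches of the complex without a region lay partly over the 6 genes and partly between them. In replicate 1 no region lay between 2510049 and 2566483, 56.4 kb that hold Edg84A, the Ccp84A cuticle genes and most of pb. In replicate 2 the same stretch held 1 region, at 0.60 and over no annotated gene, and the parts on its sides measured 21.2 kb, over the cuticle genes, and 33.3 kb, mostly over pb. The next longest in replicate 1 were 20.1 kb between ftz and Antp, over no Hox gene, and 19.0 kb that hold ftz. Most of the lab body was also free of regions, over 16.4 kb in replicate 1 and 16.5 kb in replicate 2. In replicate 2 a stretch of 23.9 kb inside Scr had none, and in replicate 1 a region at 0.46 stood within it. The median distance between neighbouring regions of the complex was 7.22 kb in replicate 1 and 7.55 kb in replicate 2.

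Beyond lab, the genes CG1307, twr and agt had regions in all 3 lists. The region over twr and agt scored 0.49 in replicate 1 and 0.45 in replicate 2. The region over CG1307 and twr scored 0.49 in replicate 1 and 0.39 in replicate 2.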
